A study of Mus musculus with 4 samples.

Results

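Proteins that enter the secretory pathway fold in the endoplasmic reticulum (ER), and 36 genes of this quality control were followed here across 4 microarrays of mouse macrophages given fatty acids. They code for ER chaperones, disulfide enzymes, degradation factors, the sensors IRE1 (Ern1) and ATF6 with the transcription factor XBP1, and parts of the translocon and of the COPII export coat. The list names XBP1 and ATF6 targets and genes of these functions, and sets no threshold on their values. All 36 were measured, out of 19939 genes with a probe of their own. RefSeq now lists Ero1l and Ero1lb as Ero1a and Ero1b. Of the 36, 35 reached the brightness filter used throughout, a highest value at or above log2 7.09, the median of all values. Derl3 did not. Altogether 11174 genes reached it.

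The cells were adherent peritoneal macrophages of wild-type C57BL/6 mice aged 8 to 12 weeks, collected 3 days after an injection of 4% thioglycolate, which draws macrophages into the cavity. They were incubated for 6 h with 500 µM palmitic acid (16 carbons, 0 double bonds), 500 µM oleic acid (18 carbons, 1 double bond) or 500 µM linoleic acid (18 carbons, 2 double bonds), each bound to bovine serum albumin (BSA). The control is labelled as BSA alone with 0 µM fatty acid, although the treatment protocol describes ethanol and KOH as the vehicle. RNA of 3 samples was pooled per group and run on 1 array, so each value below is a single log2 value from RMA, and no test, error or interval of a difference can be computed. The 3 comparisons with the control share the control array, and the comparisons with palmitic acid share the palmitic acid array.

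When unfolded proteins accumulate, IRE1 splices the XBP1 message, ATF6 is cut to release a transcription factor, and PERK slows translation and favours ATF4. XBP1 and ATF6 then raise genes for chaperones, disulfide enzymes, export and ER-associated degradation, in which misfolded proteins are drawn out to the cytosol and destroyed by the proteasome. Saturated fatty acids are known to engage these sensors in several cell types, and oleic acid is often used as the contrasting unsaturated lipid.

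The palmitic acid array stood highest for most of these genes. Of the 35 members above the filter, 24 had their highest of 4 values with palmitic acid, beside 30.5% of all 11174 genes. For 5 it lay with oleic acid (beside 26.9%), for 3 with linoleic acid (beside 29.1%) and for 3 in the control (beside 13.5%). The lowest value lay with linoleic acid for 16 members (beside 13.5%) and in the control for 13 (beside 24.6%). With oleic acid it did for 4 (beside 23.9%) and with palmitic acid for 2 (beside 38.1%). Against the control, 4 of 35 members were higher by 1.5-fold or more on the palmitic acid array (11.4%, beside 2.17% of all genes) and 0 were at least 1.5-fold lower (beside 1.41%). They were Dnajb9, Sec24d, Syvn1 and Pdia4. With only the brightest probe of a gene, where Pdia4 was 1.30-fold higher, the count was 3, as it was when quantile normalisation was repeated. At a smaller threshold of 1.25-fold, chosen after the values were seen, 12 were higher (34.3%, beside 8.65%) and 0 lower (beside 5.58%). The members' median difference was 0.15 on the log2 scale, beside 0.0006 for all genes. Within 0.1 of the control lay 13 of the 35 members, beside 4467 of 11174 genes, a share close to that of all genes.

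With the unsaturated fatty acids the members stayed closer to the control, and so did all genes. Within 0.1 of the control lay 23 of the 35 members with oleic acid (beside 6683 of 11174 genes). With linoleic acid 24 did (beside 6612), and both shares are near those of all genes. Oleic acid had 0 members at least 1.5-fold higher (beside 0.376%) and 0 lower (beside 0.34%), with a median of 0.05 and a range from -0.07 to 0.27. Linoleic acid also had 0 higher (beside 0.0358%) and 0 lower (beside 0.0358%), with a range from -0.21 to 0.22. The linoleic acid median was 0.0018 beside 0.04 for all genes. Its sign was not fixed, since it became -0.03 when arrays were centred, -0.02 when quantile normalisation was repeated and -0.0012 when only the brightest probe of a gene was used. Set against the median of all genes in the same setting, it was lower throughout, with differences from -0.05 to -0.02.

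**Figure D1:**
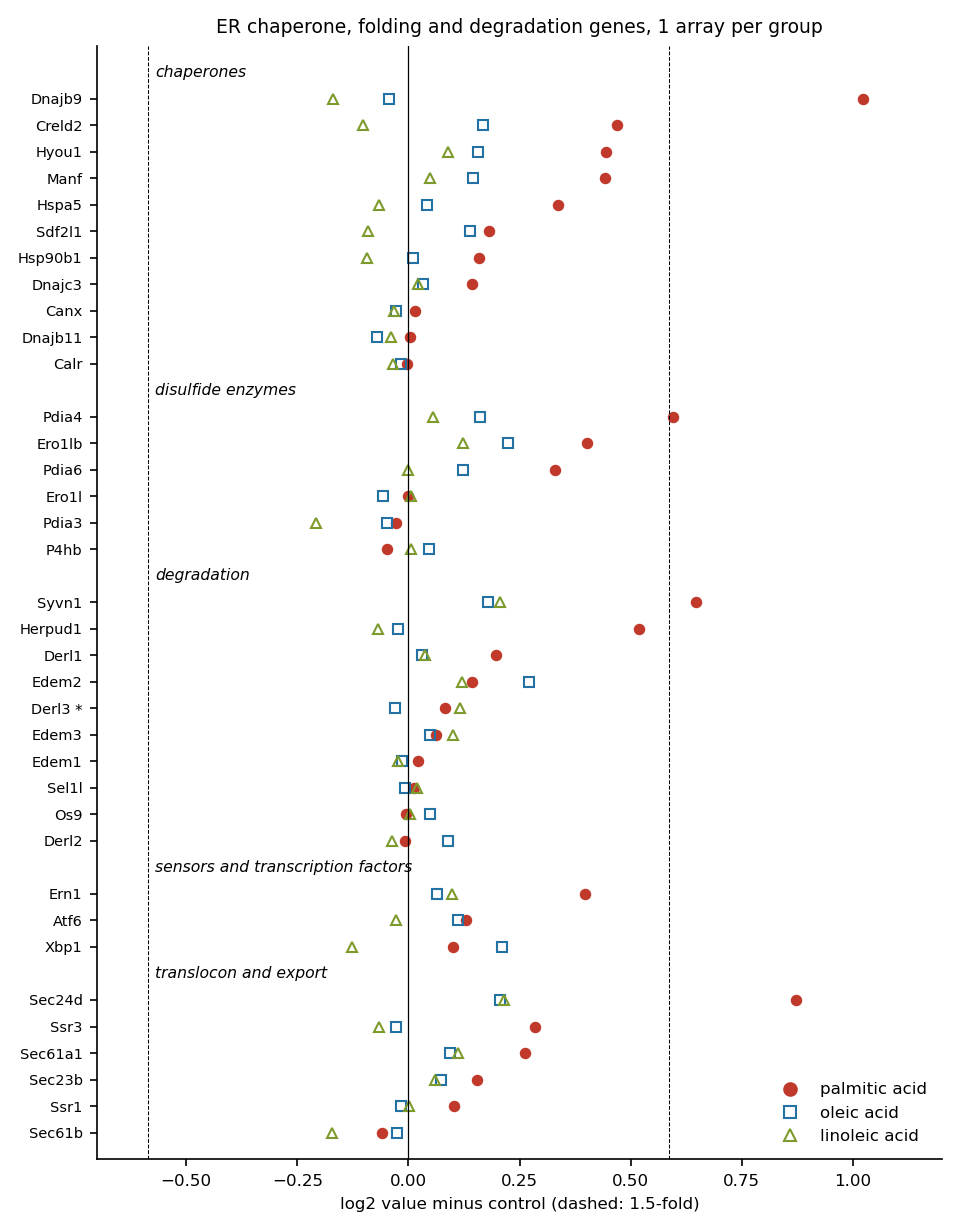
Differences of the 36 members from the control, as log2 value of the fatty acid array minus that of the control array (x axis), for palmitic acid (filled circles), oleic acid (squares) and linoleic acid (triangles), 1 array each, with genes grouped by role (y axis). The dashed lines mark 1.5-fold, the star marks Derl3, below the brightness filter, and 4 circles pass the upper line while 0 squares or triangles do.

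The DNA around the start sites was read next. The list names XBP1 and ATF6 targets, so a high share of members with the motifs these factors bind is in part built into it and is given as a description. RefSeq start sites of assembly GRCm38.p6 were available for 31 members, as windows of 250 bases before and 50 after the start, while Hyou1, Manf, Derl1, Atf6 and Sec61a1 had no entry. Each window was searched on both strands for the ER stress response element (ERSE), CCAAT and CCACG with 9 bases between, which NF-Y and ATF6 or XBP1 are known to bind. A match was found in 10 of the 31 members (32.3%) and in 37 of 27025 genes in the table (0.137%), so 27.0% of all genes with a match were members. The variant ERSE-II, ATTGG and CCACG with 1 base between, matched in 2 members, Herpud1 and Dnajb11, and in 12 genes in all (0.0444%). The 8 bases TGACGTGG, the core of the UPR element, matched in 1 member, Sec24d, and in 193 genes (0.714%). No member held both an ERSE and a TGACGTGG match. A match describes the letters and does not show that a factor was bound, and a window without one may hold diverged copies.

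The ERSE matches of the 9 members above the filter are shown to let the shared letters be compared, in the order of their palmitic acid difference, each read in the direction of the motif with 5 bases on either side and the fixed letters in capitals. Only the match that lies farther upstream is given for Hsp90b1, which has a pair of them. The 10th member with a match is Derl3.
Syvn1: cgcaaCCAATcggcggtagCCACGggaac
Creld2: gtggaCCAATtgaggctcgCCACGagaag
Ero1lb: ggcggCCAATgaggcgggaCCACGaggcc
Hspa5: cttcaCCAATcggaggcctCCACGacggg
Pdia6: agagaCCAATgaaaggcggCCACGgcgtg
Hsp90b1: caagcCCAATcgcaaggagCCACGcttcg
Dnajc3: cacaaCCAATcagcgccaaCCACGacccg
Canx: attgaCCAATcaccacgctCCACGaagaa
Calr: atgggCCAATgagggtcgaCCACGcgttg

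In GRCm38.p6 these stretches lie at Syvn1 chr19:6046527-6046555 on the plus strand, Creld2 chr15:88819515-88819543 on the plus strand, Ero1lb chr13:12565677-12565705 on the plus strand, Hspa5 chr2:34772020-34772048 on the plus strand, Pdia6 chr12:17266486-17266514 on the plus strand, Hsp90b1 chr10:86705633-86705661 on the minus strand, Dnajc3 chr14:118937822-118937850 on the plus strand, Canx chr11:50325795-50325823 on the minus strand and Calr chr8:84847070-84847098 on the minus strand, each strand being that of the gene. Those of Creld2, Ero1lb and Calr run opposite to their gene. Counted from the start site, the matches begin between position -212 (Hsp90b1) and position -44 (Syvn1).

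Members with an ERSE match differed widely among themselves with palmitic acid. Their median difference was 0.33 over 9 genes, from -0.0023 for Calr to 0.65 for Syvn1, and 1 of the 9 passed 1.5-fold. The 18 members above the filter with none of the 3 motifs had a median of 0.08, yet their range, from -0.06 to 1.02, included Dnajb9, the highest of all. Calr and Canx hold the full motif and lay at -0.0023 and 0.01. With oleic acid the corresponding medians were 0.04 and 0.05, and with linoleic acid -0.03 and 0.0023.

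**Figure D2:**
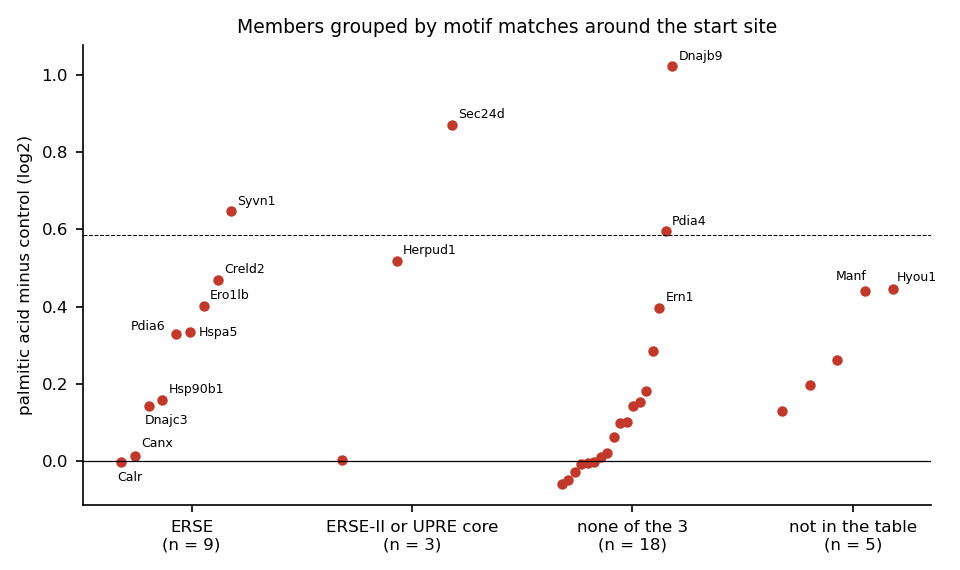
Palmitic acid minus control (y axis, log2 difference between 2 arrays) for the 35 members above the filter, each a point, grouped by matches in the window around the start site (x axis): ERSE, ERSE-II or the TGACGTGG core of the UPR element (UPRE), none of the 3, or no entry in the promoter table. The ERSE group runs from Calr at -0.0023 to Syvn1 at 0.65, and the highest point, Dnajb9, lies among the members with none of the 3.

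The sequence just before the start site is given for 4 members that differ in their matches, with the fixed letters of each match in capitals: Hspa5 (chr2:34771840-34772089, plus strand) and Syvn1 (chr19:6046326-6046575, plus strand) with an ERSE, Sec24d (chr3:123267246-123267495, plus strand) with TGACGTGG, and Dnajb9 (chr12:44210069-44210318, minus strand) with none. GC content was 62.4% in Hspa5, 56.4% in Syvn1, 70.4% in Sec24d and 65.2% in Dnajb9.
Hspa5: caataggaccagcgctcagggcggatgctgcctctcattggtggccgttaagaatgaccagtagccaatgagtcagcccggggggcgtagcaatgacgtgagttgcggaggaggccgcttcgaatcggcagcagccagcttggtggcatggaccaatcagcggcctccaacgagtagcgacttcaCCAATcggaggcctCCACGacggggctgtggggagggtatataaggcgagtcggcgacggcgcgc
Syvn1: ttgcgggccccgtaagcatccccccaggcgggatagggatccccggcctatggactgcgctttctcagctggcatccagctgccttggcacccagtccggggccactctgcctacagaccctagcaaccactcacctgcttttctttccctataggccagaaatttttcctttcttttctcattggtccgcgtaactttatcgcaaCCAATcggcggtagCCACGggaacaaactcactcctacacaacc
Sec24d: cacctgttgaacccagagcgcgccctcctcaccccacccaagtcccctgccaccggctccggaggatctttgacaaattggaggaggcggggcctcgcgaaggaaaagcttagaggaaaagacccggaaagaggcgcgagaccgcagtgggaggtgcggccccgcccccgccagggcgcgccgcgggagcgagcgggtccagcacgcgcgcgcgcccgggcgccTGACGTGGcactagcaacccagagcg
Dnajb9: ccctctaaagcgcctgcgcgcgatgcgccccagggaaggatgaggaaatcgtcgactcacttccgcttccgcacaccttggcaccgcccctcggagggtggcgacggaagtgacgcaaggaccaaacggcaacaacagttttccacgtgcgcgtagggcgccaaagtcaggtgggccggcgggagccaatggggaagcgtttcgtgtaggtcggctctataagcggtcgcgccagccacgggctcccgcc

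Among the chaperones, Dnajb9 stood out. It codes for ERdj4, an ER J-domain cochaperone of BiP and a well known target of spliced XBP1. Its level was log2 9.82 (control), 10.84 (palmitic), 9.78 (oleic) and 9.65 (linoleic). Palmitic acid thus lay 2.03-fold above the control, rank 42 from the top of 11174 genes, and the other 3 arrays lay within 0.17 of each other.

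Hspa5 codes for BiP, the main ER Hsp70 and the usual readout of this response. Its level was log2 13.02 (control), 13.35 (palmitic), 13.06 (oleic) and 12.95 (linoleic). The palmitic acid array was highest, 1.26-fold above the control. Hsp90b1, which codes for the ER Hsp90 GRP94, was at 11.99, 12.15, 12.00 and 11.90 in the same order of arrays, again with palmitic acid highest but by 0.16 only.

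A middle group of chaperone genes shared this order with palmitic acid first. Creld2, a secreted ER stress protein, differed from the control by 0.47 (palmitic), 0.17 (oleic) and -0.10 (linoleic). Hyou1, the nucleotide exchange factor GRP170 of BiP, lay at 0.44, 0.16 and 0.09, and Manf, a secreted stress-induced survival factor, at 0.44, 0.14 and 0.05. For Sdf2l1, which works with BiP and J-domain proteins, palmitic acid (0.18) and oleic acid (0.14) were nearly alike.

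The remaining chaperone genes differed little. Dnajc3, which codes for the cochaperone p58IPK, lay at 0.14 with palmitic acid, the same in both of its probes because their deposited values are identical. The lectin chaperones calreticulin (Calr) and calnexin (Canx) stayed within 0.05 across all 4 arrays, at about log2 12.83 and 12.96 in the control. Dnajb11, the cochaperone ERdj3, ranged over 0.07 in all, with palmitic acid at 0.0023. In all, 5 of the 11 chaperone genes passed 1.25-fold upward with palmitic acid (beside 8.65% of all genes), and the median was 0.18, beside 0.03 with oleic acid and -0.04 with linoleic acid.

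**Figure D3:**
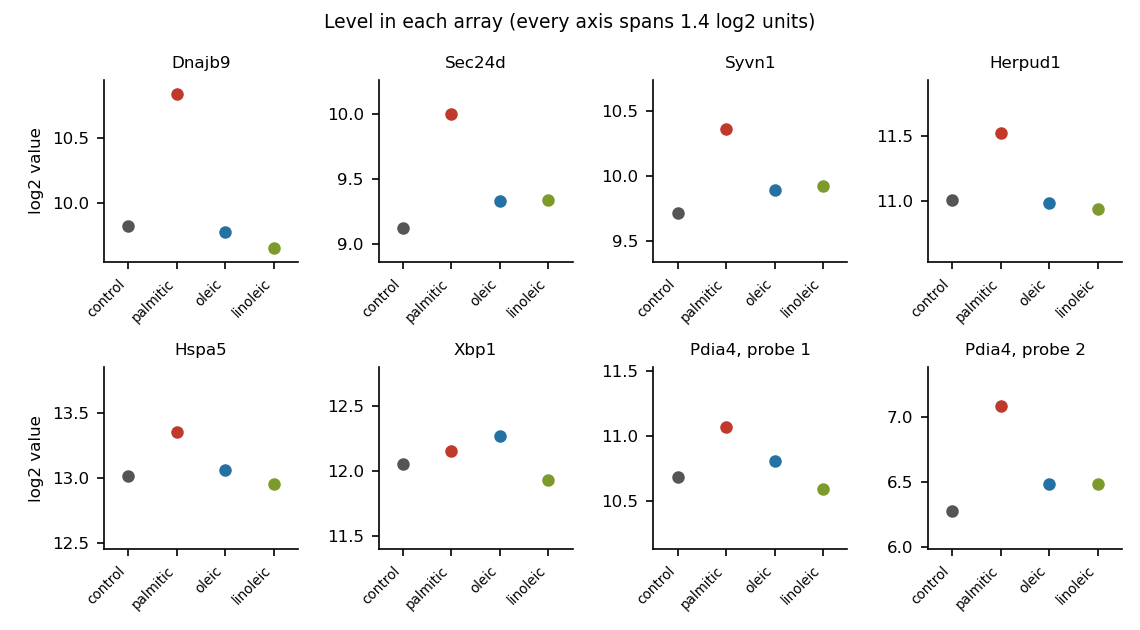
Log2 level (y axis) in each of the 4 arrays (x axis) for 6 members and for the separate probes of Pdia4, each point being 1 array of pooled RNA and each y axis spanning the same width. Palmitic acid is highest in every panel but that of Xbp1, where oleic acid is highest at 12.27.

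Disulfide enzymes split into those higher with palmitic acid and those near the control. Pdia4, which codes for the isomerase ERp72, had averaged values of 8.48 (control), 9.08 (palmitic), 8.64 (oleic) and 8.54 (linoleic), a difference of 0.59 for palmitic acid that just passes the 1.5-fold line at 0.585. Its probes disagreed in sign with linoleic acid, at -0.09 for the bright one and 0.20 for the dim one, and in size with palmitic acid. The bright one went from 10.68 to 11.06, a difference of 0.38 or 1.30-fold. The dim one, which the platform annotation lists only with a predicted transcript, lay below the filter level in all 4 arrays and went from 6.28 to 7.09, a difference of 0.81. With the brightest probe alone Pdia4 was thus below the line, and a repeated quantile normalisation put its average at 0.57, also below.

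Ero1lb, one of the ER oxidases that recharge the isomerases, lay at 0.40 (palmitic), 0.22 (oleic) and 0.12 (linoleic). Its paralogue Ero1l, known to respond to hypoxia, lay at -0.0020 with palmitic acid and ranged over 0.06 in all. Pdia6, the isomerase P5, lay at 0.33, 0.12 and -0.0012. The abundant isomerases P4hb and Pdia3 lay at -0.05 and -0.03 with palmitic acid, and Pdia3 was lowest with linoleic acid at -0.21.

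In the degradation group the ligase gene was higher and its partner was not. Syvn1 codes for HRD1, the ubiquitin ligase at the centre of the ER degradation channel. Its level was log2 9.71 (control), 10.36 (palmitic), 9.89 (oleic) and 9.92 (linoleic). Palmitic acid lay 1.57-fold above the control, and oleic and linoleic acid also lay above it, by 0.18 and 0.21. Sel1l, the HRD1 adaptor, lay at 11.74, 11.75, 11.73 and 11.76, a spread of 0.03.

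Herpud1, a stress-induced protein of the HRD1 complex, was at log2 11.01 (control), 11.52 (palmitic), 10.98 (oleic) and 10.94 (linoleic). The difference of 0.52 was 1.43-fold, short of the 1.5-fold line, and the other 3 arrays were close together. Its ERSE-II match begins at position -52 (chr8:94386372-94386392, plus strand), with the fixed letters in capitals.
Herpud1: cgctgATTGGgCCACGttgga

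The other degradation genes lay closer to the control with palmitic acid. The channel proteins Derl1 and Derl2 lay at 0.20 and -0.0078, and the dim Derl3 at 0.08 with values between 6.90 and 7.05. Among the mannosidase-like EDEM genes, which mark misfolded glycoproteins for removal, Edem1 (0.02) and Edem3 (0.06) were near the control. Edem2 was highest with oleic acid, at 0.27 beside 0.14 with palmitic acid and 0.12 with linoleic acid. The lectin gene Os9 lay at -0.0047. The median of the 9 degradation genes above the filter was 0.06 with palmitic acid, and 2 of them were at least 1.25-fold higher (beside 8.65% of all genes).

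The genes of the sensors and of XBP1 lay between 0.10 and 0.40 with palmitic acid, with a median of 0.13 beside 0.15 for the 35 members. Ern1, which codes for IRE1, was at log2 10.01 (control), 10.41 (palmitic), 10.08 (oleic) and 10.11 (linoleic), so that only palmitic acid stood apart, by 0.40. Atf6 was at 10.38, 10.51, 10.49 and 10.35, with palmitic and oleic acid 0.02 apart. Xbp1 was at 12.06, 12.16, 12.27 and 11.93, which makes oleic acid the highest array and linoleic acid the lowest. These values are of the whole transcript, and the spliced form of Xbp1, on which its activity depends, was not measured apart from the unspliced form. The cleavage of ATF6 is likewise not seen in RNA.

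Among the translocon and export genes, Sec24d was the highest. It codes for a COPII coat subunit that selects cargo leaving the ER. Its level was log2 9.13 (control), 10.00 (palmitic), 9.33 (oleic) and 9.34 (linoleic). Palmitic acid lay 1.83-fold above the control, rank 74 of 11174, and the unsaturated fatty acids lay above it by 0.21 and 0.22. Sec23b, a subunit of the same coat layer, lay at 0.15 with palmitic acid.

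Of the translocon genes, Sec61a1, the channel itself, lay at 0.26 (palmitic), 0.09 (oleic) and 0.11 (linoleic). Its small subunit gene Sec61b lay at -0.06, -0.03 and -0.17, the average of 3 probes that were all lowest with linoleic acid. Ssr3 and Ssr1, of the translocon-associated TRAP complex, lay at 0.28 and 0.10 with palmitic acid, and Ssr3 was at -0.03 with oleic acid and -0.07 with linoleic acid.

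The share of genes past 1.5-fold was smallest among the brightest genes, a band that holds several members. Of the 626 genes with a mean level of 12 or more, 1.76% were at least 1.5-fold higher or lower with palmitic acid, beside 5.38% of the 1674 genes between 10 and 11. The 7 members at 12 or more, among them Hspa5, Calr, Canx and Pdia3, had a median of 0.10 and 0 of them passed 1.5-fold. The 3 members between 9 and 10, Syvn1, Sec24d and Edem3, had a median of 0.65. A near-zero difference in a bright gene such as Calr does not show that its RNA stayed the same.

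**Figure D4:**
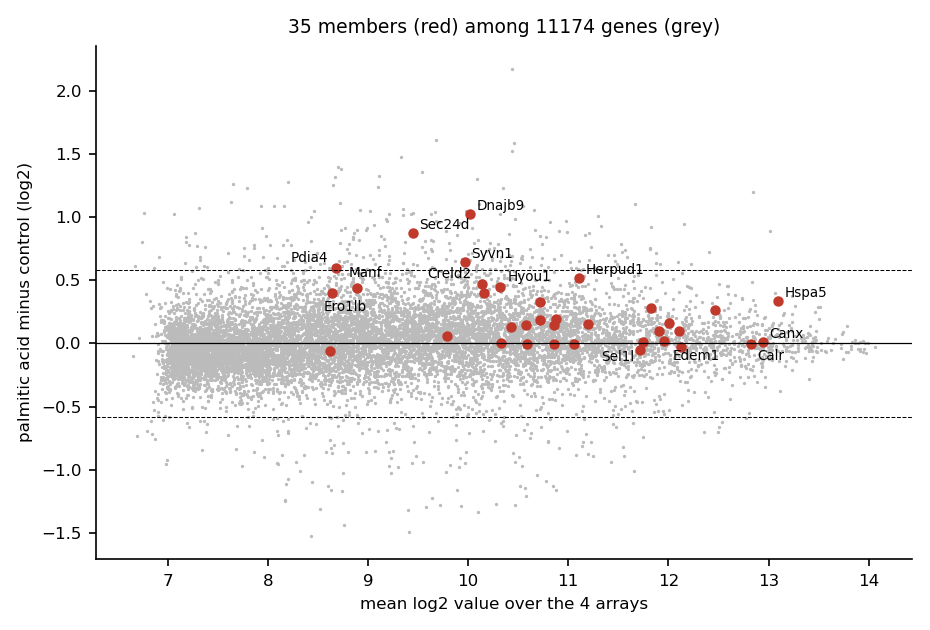
Palmitic acid minus control (y axis, log2) against the mean log2 level over the 4 arrays (x axis) for the 35 members (red) and all 11174 genes above the filter (grey), with dashed lines at 1.5-fold. The grey points spread least at the bright end, where Hspa5 lies at 0.34 and Calr and Canx lie close to 0.

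The fatty acids were then set against each other at the same concentration and time, which gave 3 pairs and no test, with each difference between 2 arrays. Palmitic and oleic acid differ in chain length and in 1 double bond. Past 1.5-fold in favour of palmitic acid were 2 of 35 members (5.71%, beside 1.82% of all genes), Dnajb9 by 1.07 (2.09-fold) and Sec24d by 0.67 (1.59-fold), and 0 were lower (beside 1.66%). At 1.25-fold there were 6 (17.1%, beside 9.37%), with Herpud1 (0.54), Syvn1 (0.47), Pdia4 (0.43) and Ern1 (0.33) added, and 0 lower (beside 7.45%). The bright probe of Pdia4 alone lay at 0.26, short of 1.25-fold. The median was 0.11, and Edem2, Xbp1, Derl2 and P4hb were the 4 members with the lowest values, from -0.13 to -0.09.

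Palmitic and linoleic acid differ in chain length and in both double bonds. Here 3 of 35 members passed 1.5-fold in favour of palmitic acid (8.57%, beside 1.58%), Dnajb9 by 1.19 (2.28-fold), Sec24d by 0.66 and Herpud1 by 0.59, and 0 were lower (beside 2.01%). Herpud1 lay just past the line, and Creld2 at 0.57 and Pdia4 at 0.54 lay just short of it. At 1.25-fold 11 were higher (31.4%, beside 5.88%) and 0 lower (beside 7.26%). The median was 0.16 beside -0.03 for all genes. All 11 chaperone genes were higher with palmitic acid, by 0.03 to 1.19, beside 42.5% of all genes. The same 11 were also higher with palmitic than with oleic acid, by 0.01 to 1.07, beside 45.9% of all genes.

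Linoleic and oleic acid share their chain length and differ by 1 double bond. Between them 0 of 35 members passed 1.5-fold in favour of linoleic acid (beside 0.707%) and 0 lower (beside 0.34%). The difference farthest from 0 was that of Xbp1, which was 1.26-fold lower with linoleic acid, at -0.34, followed by Creld2 at -0.27 and Sdf2l1 at -0.23. The median was -0.04 beside 0.02 for all genes, and 25 of 35 members were lower with linoleic acid, beside 4994 of 11174 genes. A difference below 1.5-fold between single arrays does not show that these fatty acids act alike.

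**Figure D5:**
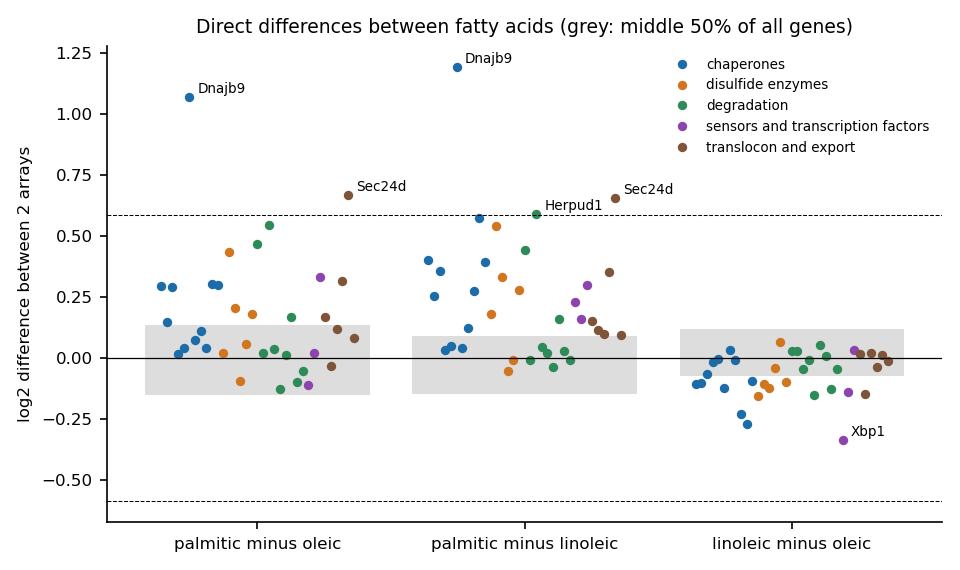
Log2 difference between 2 arrays (y axis) for each of the 35 members above the filter (points, coloured by role) in the 3 pairs of fatty acids (x axis). Grey boxes span the middle 50% of all 11174 genes and dashed lines mark 1.5-fold. Dnajb9 lies at 1.07 and 1.19 in the pairs with palmitic acid and at -0.12 between linoleic and oleic acid.

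Other genes of ER folding, degradation, translocation and export, and of ATF6 cleavage and the PERK arm, were read from a further list of 67. Of these, 63 were measured and 62 reached the filter, 9 of them genes of ATF6 cleavage and the PERK arm. Against the control, palmitic acid had 5 of the 62 past 1.5-fold upward (beside 2.17% of all genes) and 0 downward (beside 1.41%), with a median of 0.14 beside 0.0006. With oleic acid 0 passed in either direction (beside 0.376% and 0.34%) and the median was 0.04. With linoleic acid 0 passed as well (beside 0.0358% in each direction), and the median was also 0.04. Of the 5, 4 belong to the PERK and ATF4 arm: Chac1 (1.26), Ppp1r15a (1.11), Ddit3 (0.91) and Trib3 (0.76), while the PERK gene Eif2ak3 itself lay at 0.26 and Atf4 at 0.43. The rest of the 9 were Atf3 (0.49), Mbtps1 (0.20) and Asns (0.17). The remaining gene of the 5 was Txndc11, a thioredoxin domain protein of the ER, at 8.65 (control), 9.28 (palmitic), 8.68 (oleic) and 8.74 (linoleic). By group, 4 of the 9 genes of ATF6 cleavage and the PERK arm passed 1.5-fold upward, and 1 of the 15 folding genes did (6.67%). Among the further degradation (11), translocon (13) and export (14) genes 0 did, beside 2.17% of all genes.

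Of the 62 genes, 1 was at least 1.5-fold lower with palmitic than with oleic acid, near the share of all genes (1.66%). In the same pair 5 were higher (8.06%, beside 1.82%). The lower gene was Erp29, a chaperone related to the disulfide isomerases but without their active site. It was at 8.42 (control), 8.17 (palmitic), 8.78 (oleic) and 8.47 (linoleic). Among the 13 further translocon, glycosylation and signal peptidase genes 0 were 1.25-fold higher with palmitic acid, with a median of 0.10, and among the 11 further degradation genes 3 were, with a median of 0.20 (beside 8.65% of all genes and a median of 0.0006). The paralogues of Sec24d, named after their values were seen, lay at 0.36 (Sec24a), 0.16 (Sec24b) and 0.36 (Sec24c) with palmitic acid.

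The label of the cells was checked against markers. All 11 measured macrophage markers were above the filter, with a median level of 12.83 in the control and a median palmitic acid difference of -0.05. They did not all stay near it: the Fc receptor gene Fcgr1 lay 1.58-fold below the control with palmitic acid, at -0.66, and at 0.65 with oleic acid, while Mertk, a receptor for apoptotic cells, lay at 0.51 with palmitic acid and 0.32 with oleic acid. Markers of mesothelial cells and fibroblasts differed with palmitic acid. Of 11 measured, 8 were above the filter and all 8 were lower than the control (beside 5577 of 11174 genes), with a median of -0.25. The receptor genes Pdgfrb (-1.29) and Pdgfra (-0.86) lay farthest below the control. The rest of the 8 lay between -0.28 and -0.15, so the drop was not even across these markers. Pdgfrb was also below the control with oleic acid, at -0.71, while Pdgfra lay at -0.06 there. With oleic acid 6 of the 8 were lower than the control (beside 4981 of 11174 genes), with a median of -0.04. With linoleic acid 3 were (beside 3884), with a median of 0.05. Summed over all 11 measured, the 3 below the filter included, their level on the linear scale was 5637 (control), 4241 (palmitic), 5151 (oleic) and 5995 (linoleic). The part of this in the members' values was not tested, and in pooled RNA fewer cells of a type and less RNA per cell cannot be told apart. Plasma cells are rich in ER chaperones, and of their markers Jchain (4.29 to 4.60), Ighm (5.46 to 5.76) and Tnfrsf17 (6.75 to 6.91) lay below the filter level in all 4 arrays. Of the 9 B and plasma cell markers measured, 3 were above the filter: Sdc1 at 11.01 (control), 11.14 (palmitic), 11.47 (oleic) and 11.11 (linoleic), Cd79b between 7.27 and 7.53, and Mzb1 between 6.95 and 7.20. Their part in the members' values was not tested.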

How the data were processed

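RNA pooled from 3 samples per group was labelled from 100 ng of total RNA and measured on 4 Affymetrix arrays, 1 per group. The values deposited by the authors are log2 expression values made with RMA, per the submitters' processing notes. Its version is not given in the sources used here, nor is the genome build. All values lie between 2.28 and 14.44, as log2 intensities do. Of 35556 probes, 21789 have exactly 1 gene in the platform annotation. They were averaged per gene by Entrez ID. All 36 members matched RefSeq by that ID, 2 under a newer symbol. Genes whose highest value reached log2 7.09 were kept.

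Differences of log2 values were taken between arrays, and genes at least 1.5-fold apart were counted. With 1 array per group there is no test, and the number of arrays limits the precision. The members, lists and motifs were chosen with earlier results of these data known. Values in all 4 arrays are given for members past 1.5-fold in any comparison, for Hspa5, Hsp90b1, Xbp1, Atf6, Ern1 and Herpud1, and for a member whose probes disagree, and of the other pathway genes those past 1.5-fold in any comparison are named. Promoter sequences are from RefSeq, GRCm38.p6; protein sequences were not analysed here. The counting was tested on simulated data. Python 3.11.15, numpy 2.4.6 and pandas 2.3.3 were used. Alternatives were other scalings, filters, probe rules and a floor. Markers of T cells, NK cells, neutrophils, mast cells and eosinophils were also read. Of these, 1 of 6, 1 of 7 and 2 of 8 reached the filter (lymphocytes, neutrophils, and mast cells with eosinophils), with median palmitic acid differences of 0.07, -0.11 and -0.01 over all measured. For B and plasma cells 3 of 9 did, with a median of 0.06.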

Additional observations from a re-analysis of the deposited data

How the results depend on the processing

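The counts of members past 1.5-fold and their medians kept their direction under the 7 alternatives, except the linoleic acid median, which changed sign as given above. The count of members at least 1.5-fold higher with palmitic acid than the control was 3 or 4, that over oleic acid was 2 throughout, and that over linoleic acid was 3 or 4. Members with palmitic acid highest numbered 21 to 28 of 35, or 23 of 33 with a filter at the 75th percentile. The median of palmitic acid against the control ran from 0.11 to 0.16, against oleic acid from 0.07 to 0.11 and against linoleic acid from 0.16 to 0.20, while that of linoleic against oleic acid ran from -0.10 to -0.04. With the brightest probe Pdia4 was at 0.38, and after a repeated quantile normalisation at 0.57. No paired analysis was possible because each group is 1 array. No value has a replicate.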

Other observations

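The ERSE match of Creld2 lies between 2 genes that are read in opposite directions. The same 19 bases, chr15:88819520-88819538 in GRCm38.p6, begin at position -126 from the start of Creld2 and at position -220 from that of Alg12. Alg12 codes for an enzyme that adds mannose to the precursor of the sugar chains of glycoproteins. Alg12 lay at 0.15 (palmitic), 0.16 (oleic) and 0.0049 (linoleic) relative to the control, beside 0.47, 0.17 and -0.10 for Creld2. The 27 genes outside the list with an ERSE match had 11 measured and 4 above the filter. These were Alg12, Pan2 (-0.02 with palmitic acid), Adcy3 (-0.16) and Spats2l (-0.27), where the match of Spats2l lies after its start site. Of the 192 other genes with TGACGTGG, 99 were above the filter, and palmitic acid against the control had 2 of them past 1.5-fold upward and 1 downward, close to the shares of all genes (2.17% and 1.41%), with a median of 0.05. These genes were chosen by sequence alone, and the differences are between single arrays.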
